A study of Mus musculus with 24 samples.

Results

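The 9 interferon response genes Stat2, Irf9, Irf1, Irf7, Isg15, Ifit1, Ifit3, Oasl2 and Bst2 were followed in TM3 cells, an established mouse Leydig cell line, over the first day after exposure to a nanosecond pulsed electric field (nsPEF). The genes were chosen by name as part of the interferon pathway, but with earlier results of these data known. Their counts set against all genes are therefore a description, not an independent test. Every array probe whose RefSeq transcript belonged to one of them was used, which gave 13 of the 56605 probes on the array. Sham-exposed cells formed the groups S0, S4 and S24, harvested 0, 4 and 24 h after treatment, and nsPEF-exposed cells formed E0, E4 and E24, with 4 biological replicates and therefore 4 one-colour arrays in each of the 6 groups. The nsPEF cells received 80 pulses of 60 ns at 14 kV/cm and 26.4 pulses per minute during 180 s in an electroporation cuvette. The sham cells were also washed in the cold, passed through a cell strainer and put into cuvettes, and all cells were of this 1 line. A level is given here as log2 of the probe's signal minus the 75th percentile of all probes on that array, so that 0 is the 75th percentile and a difference of 1 is a 2-fold difference. Levels of different probes are not compared with each other.

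Interferons are secreted proteins that warn cells of viral or foreign nucleic acid. Type I and type III interferons activate the kinases Jak1 and Tyk2 at their receptors, which leads to phosphorylation of Stat2, and Stat2 joins Irf9 in a complex that binds the interferon-stimulated response element (ISRE) in the promoters of antiviral genes. Interferon gamma works mainly through the gamma-activated site (GAS), with Irf1 as a well known target. In the testis, Leydig cells and Sertoli cells are known to mount such antiviral responses.

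The promoter stretches that carry these motifs are shown first, because they are a feature of these genes that does not come from the expression data. In the RefSeq windows from 250 bases before to 50 bases after the transcript start (mouse build GRCm38.p6), the ISRE core (GAAA, any 2 bases, GAAA) was searched on both strands, and it was present in 5 of the 9 genes against 3.99% of 27025 genes with a window. The GAS letters TTCNNNGAA, N being any base, were present in 2 of the 9 genes against 9.55% of all genes. Capitals mark the matches, and each stretch runs 5′ to 3′ along the gene's own strand.
Isg15, chr4:156200845-156200926, minus strand: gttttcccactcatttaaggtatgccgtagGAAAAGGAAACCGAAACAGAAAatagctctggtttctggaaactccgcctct
Ifit1, chr19:34640755-34640843, plus strand: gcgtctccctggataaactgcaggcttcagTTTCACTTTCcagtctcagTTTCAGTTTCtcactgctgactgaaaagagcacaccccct
Ifit3, chr19:34583343-34583446, plus strand: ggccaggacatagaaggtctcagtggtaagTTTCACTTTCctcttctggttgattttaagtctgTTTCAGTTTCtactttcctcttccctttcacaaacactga
Stat2, chr10:128270248-128270315, plus strand: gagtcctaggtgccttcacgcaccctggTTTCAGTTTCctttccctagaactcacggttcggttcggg
Bst2, chr8:71537557-71537638, minus strand: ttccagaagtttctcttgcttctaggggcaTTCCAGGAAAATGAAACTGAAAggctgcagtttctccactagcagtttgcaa
Irf1, chr11:53769894-53769962, plus strand: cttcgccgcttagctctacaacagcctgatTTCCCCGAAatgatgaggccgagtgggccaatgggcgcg
Isg15 held 3 overlapping ISRE cores, the first base of the nearest one 66 bases before the start. Ifit1 and Ifit3 held 2 separate cores each, read on the opposite strand. Stat2 held 1 core, 222 bases before the start, also on the opposite strand. In Bst2 a GAS match, whose first base lay 136 bases before the start, overlapped the first of 2 ISRE cores, which overlapped each other. Irf1 held a GAS match only, 90 bases before the start. Neither set of letters was found in the windows of Irf7, Irf9 and Oasl2, and such a match is a description of the letters, not a measured binding site. Among the other genes of the pathway with a window, 36 of 99 held the ISRE core.

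A probe was tested when the scanner called it well above background on 2 or more arrays of any 1 group. This held for 12 of the 13 probes and left Ifit1 out, which gave 8 genes tested. Each gene is described by its brightest tested probe. Each time point was hybridised on a slide of its own (8 arrays), so that time and slide cannot be told apart. Sham arrays always lay in one row of a slide and nsPEF arrays in the other, so that treatment and place on the slide cannot be told apart. Between 57.5% and 62.1% of probes were well above background on the sham arrays and between 51.2% and 57.2% on the nsPEF arrays. The 9355 probes that were never well above background were brighter on the nsPEF arrays, with a median log2 difference of 0.53 at 0 h, 0.94 at 4 h and 0.77 at 24 h, and the Ifit1 and Ifit3 probes were dim. The cells are bulk samples, so that fewer cells expressing a gene and less RNA per cell cannot be told apart. Of 8 Leydig cell markers, 7 were on the array and 3 (Star, Cyp17a1 and Nr5a1) were well above background on all 24 arrays, whereas Cyp11a1, Hsd3b1, Hsd17b3 and Lhcgr were well above background on none.

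**Figure D1:**
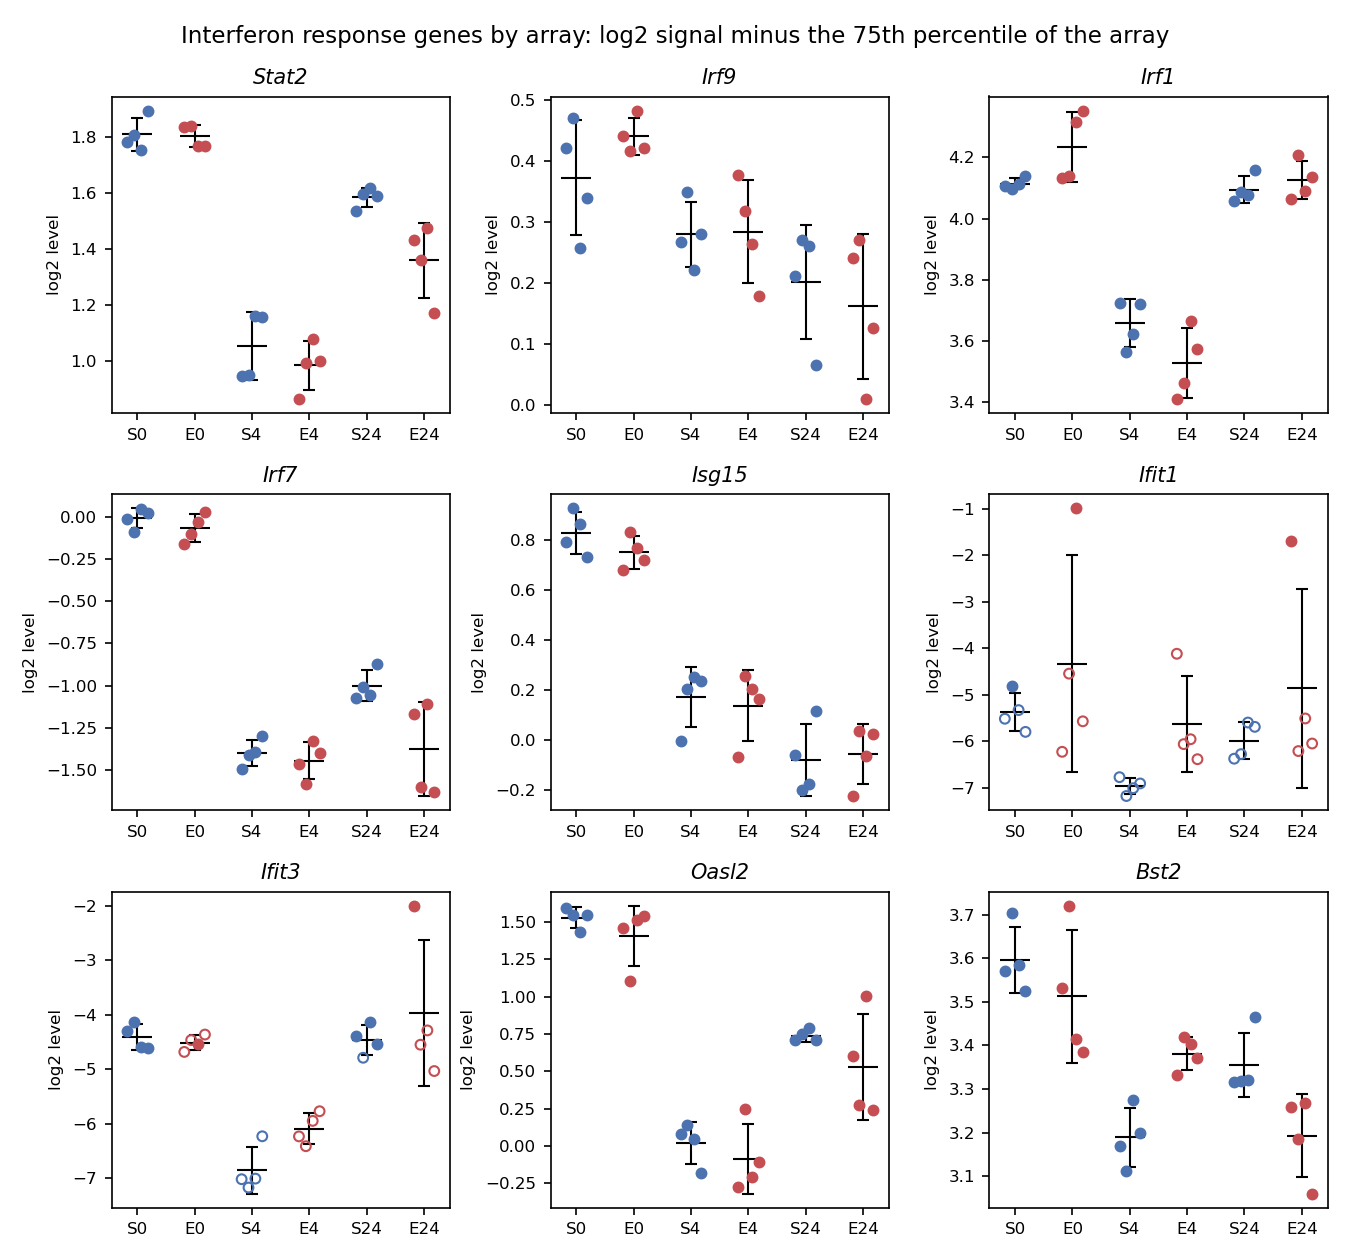
Level of each of the 9 genes on each of the 24 arrays (y axis: log2 signal minus the 75th percentile of the array; x axis: the 6 groups; blue sham, red nsPEF; filled points well above background, open points not; bars mean ± SD, n = 4; Ifit1 was not tested). Stat2, Irf7, Isg15 and Oasl2 stood lower at 4 h than at 0 h on every array of both treatments, and the y axes differ between genes.

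The first question was how the genes changed with time in the sham cells, which went through the harvest and the cuvette without pulses. From 0 to 4 h, 7 of the 8 genes tested fell and none rose, against 34.6% of all 16842 genes tested that fell and 30.8% that rose. The median difference of the 8 genes was -0.71, and that of all genes was -0.04. Ifit3 passed the filter only through groups in which it was higher, and without it 6 of 7 genes fell, with a median of -0.66. The count was 7 or 8 in the other 14 ways of processing tried and 7 with any array or replicate number left out.

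The transcription factors came first in order of the pathway. Stat2, a subunit of the type I complex, had levels of 1.78, 1.81, 1.76 and 1.89 in S0 and 0.95, 0.95, 1.16 and 1.16 in S4. The groups did not overlap, and the fall was -0.76 ± 0.07 (SE, n = 4 in each group, limma adjusted p = 3.48e-09), a 1.69-fold lower level. The second, dimmer Stat2 probe gave -0.59 ± 0.52 and did not pass (limma adjusted p = 0.346). Irf9, which gives that complex its DNA contact, had means of 0.37 ± 0.09 in S0 and 0.28 ± 0.05 in S4 (SD, n = 4), and the arrays of both groups overlapped. Its difference of -0.09 ± 0.06 missed the threshold (limma adjusted p = 0.224), although its second, dimmer probe gave -0.21 (limma adjusted p = 0.0168).

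Irf1, a transcription factor induced by interferon gamma and also by other signals such as NF-kappaB, had levels of 4.11, 4.10, 4.11 and 4.14 in S0 and 3.73, 3.57, 3.62 and 3.72 in S4. The fall of -0.46 ± 0.06 was far larger than the spread (limma adjusted p = 1.64e-06). The second Irf1 probe, with 1 S4 array left out by its spot flag, fell by 0.57 on the log2 scale (limma adjusted p = 0.0193). Irf7, the factor that amplifies interferon production and is itself an interferon target, had levels of -0.01, -0.09, 0.05 and 0.02 in S0 and -1.49, -1.41, -1.40 and -1.30 in S4. No array of one group came near the other, and Irf7 was 2.63-fold lower at 4 h (log2 difference -1.39 ± 0.10, limma adjusted p = 1.22e-10). The second Irf7 probe, well above background on 2 of 4 arrays in S4, gave -0.86 ± 0.59 and did not pass (limma adjusted p = 0.227).

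Among the effectors, Oasl2, a member of the oligoadenylate synthetase family, stood at 1.59, 1.54, 1.43 and 1.54 in S0 and at 0.08, 0.14, 0.05 and -0.18 in S4. It was 2.84-fold lower at 4 h (log2 difference -1.51 ± 0.14, limma adjusted p = 1.04e-08). Isg15, a ubiquitin-like protein that is attached to other proteins and also secreted, stood at 0.79, 0.93, 0.86 and 0.73 in S0 and at 0.00, 0.21, 0.25 and 0.24 in S4. This was a 1.57-fold lower level without overlap (log2 difference -0.66 ± 0.08, limma adjusted p = 8.69e-07). Bst2, or tetherin, which holds budding virus particles at the cell surface, fell from a mean of 3.60 ± 0.08 to 3.19 ± 0.07 (SD, n = 4), a difference of -0.41 ± 0.07 (limma adjusted p = 2.76e-05).

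Ifit1, which binds foreign RNA, and Ifit3, of the same family, belong to the most strongly induced interferon targets, and both were dim. Ifit3 was well above background on 4 of 4 arrays in S0, with levels of -4.30, -4.13, -4.58 and -4.61, and on 0 of 4 arrays in S4. The fall on the measured values passed (limma adjusted p = 3.43e-05), but it rests on S4 signals that were not well above background. Taking the dim arrays at the lowest signal of probes well above background, the S0 level was at least 1.44-fold higher than in S4. This bound itself was not tested. Mouse Ifit3 has a near-identical neighbour, Ifit3b, and the probe was not checked against it. Ifit1 was well above background on 1 of 4 arrays in each of S0, E0 and E24 and on none in S4, E4 and S24, so no difference is given for it.

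From 4 to 24 h, 6 of the 8 genes rose in the sham cells and 1 fell, against 31.7% and 33.8% of all genes. Without Ifit3 5 of 7 rose. Stat2 rose by 0.53 ± 0.07 (limma adjusted p = 7.42e-07), Irf1 by 0.44 ± 0.06 (limma adjusted p = 3.44e-06), Irf7 by 0.40 ± 0.10 (limma adjusted p = 0.00155) and Oasl2 by 0.72 ± 0.14 (limma adjusted p = 0.000198). The second probes gave 0.805 for Stat2, 0.28 for Irf1 and -0.17 for Irf7, none of which passed, and -0.27 for Irf9, which passed. Bst2 rose by 0.17 ± 0.07 (limma adjusted p = 0.0417), a call that was lost in 2 of the 14 other ways of processing. Ifit3 was well above background on 3 of 4 arrays in S24 and was there at least 1.39-fold higher than in S4. Isg15 went the other way, with levels of -0.06, -0.20, -0.17 and 0.12 in S24 that overlapped S4 (log2 difference -0.25 ± 0.08, limma adjusted p = 0.0139), and its sign turned with scaling on spike-in RNA.

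At 24 h, on the percentile scale, 6 of 8 genes stood lower than at 0 h in the sham cells and none higher, against 22.8% and 15.7% of all genes. The direction of several of them depended on the scaling, as given below. Irf7 was 1.99-fold lower (log2 difference -0.995 ± 0.10, limma adjusted p = 1.31e-07), Isg15 1.88-fold lower (-0.91 ± 0.08, limma adjusted p = 5.24e-08) and Oasl2 1.73-fold lower (-0.79 ± 0.14, limma adjusted p = 0.000181). Stat2 (-0.23), Bst2 (-0.24) and Irf9 (-0.17) passed by less, and with replicate 1 of each group left out the count was 3 of 8. Irf1 had a difference of -0.02 ± 0.06 (limma adjusted p = 0.843), and Ifit3 gave -0.06 ± 0.42 (limma adjusted p = 0.939). The second probes gave 0.21 for Stat2, -0.30 for Irf1 and -1.03 for Irf7, none of which passed, and -0.475 for Irf9, which passed.

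The scaling matters for the comparisons with 24 h. When the arrays were scaled on the RNA spiked in before labelling, the median of all genes itself stood 0.67 higher at 24 h than at 0 h in sham cells and 0.50 higher in nsPEF cells. On that scale Stat2 (0.46, limma adjusted p = 7.73e-06), Irf1 (0.67, 4.39e-07), Irf9 (0.52, 3.01e-05) and Bst2 (0.45, 3.42e-05) passed as higher at 24 h in sham cells. In nsPEF cells these genes also had differences above 0, and of them Irf1 passed. Relative to the median of all genes in sham cells, Stat2, Irf9 and Bst2 still stood at -0.20, -0.15 and -0.22, and Irf1 at 0.00335. Irf7, Isg15 and Oasl2 had negative differences on the spike-in scale in both treatments, although that of Oasl2 in sham cells no longer passed (-0.10, limma adjusted p = 0.559), and relative to the median they stood at -0.97, -0.89 and -0.77 in sham cells. From 4 to 24 h that median rose by 0.65, and relative to it Isg15 stood at -0.26.

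**Figure D2:**
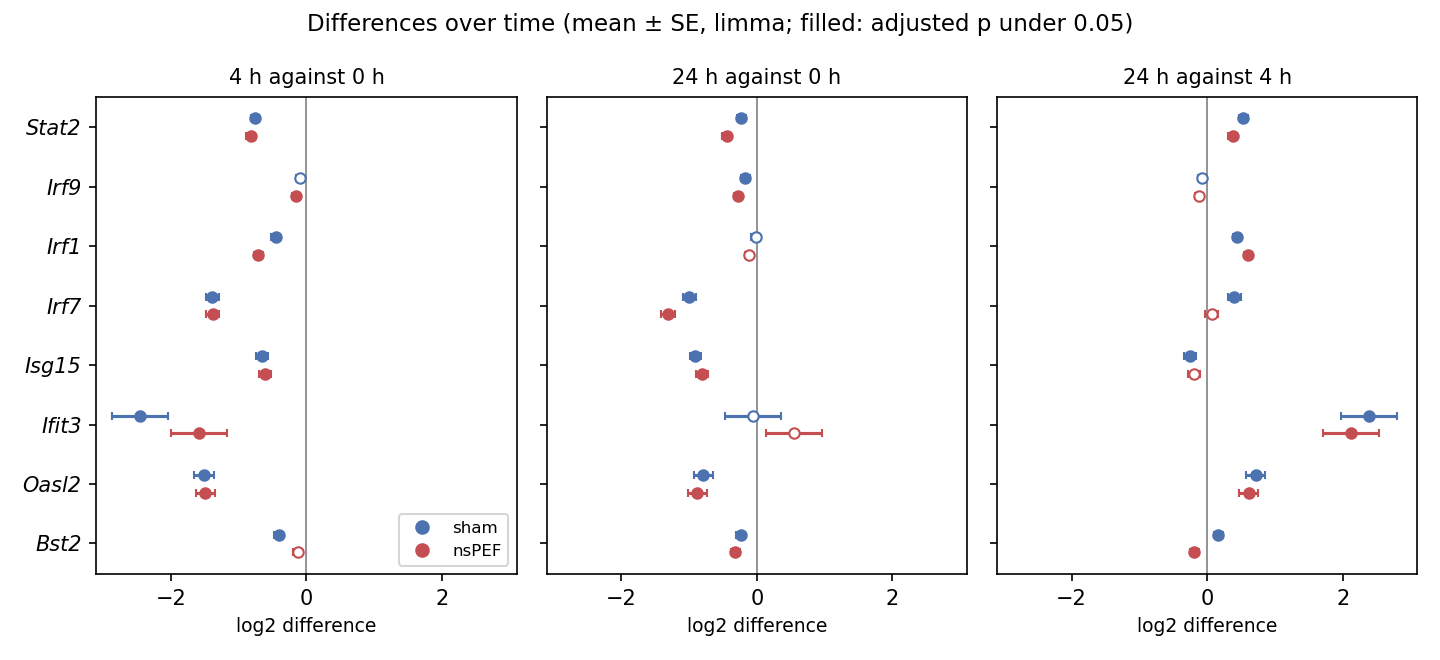
Differences between time points for the 8 genes tested, in sham cells (blue) and nsPEF cells (red); the x axis is the log2 difference with its SE (limma, n = 4 in each group) and filled points have an adjusted p under 0.05. From 0 to 4 h all 8 genes had negative differences in both treatments, those of Ifit3 being against arrays not well above background, and Isg15 and Irf9 had negative differences between 4 and 24 h too.

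In nsPEF-exposed cells from 0 to 4 h, 7 of the 8 genes fell and none rose, against 33% and 34.8% of all genes, and without Ifit3 6 of 7 fell. Irf7 had levels of -0.16, -0.10, -0.03 and 0.03 in E0 and -1.47, -1.58, -1.33 and -1.40 in E4, a 2.60-fold lower level (log2 difference -1.38 ± 0.10, limma adjusted p = 1.36e-10). Oasl2 was 2.81-fold lower (-1.49 ± 0.14, limma adjusted p = 1.17e-08), Stat2 1.77-fold (-0.82 ± 0.07, limma adjusted p = 9.94e-10), Irf1 1.63-fold (-0.71 ± 0.06, limma adjusted p = 2.77e-09) and Isg15 1.53-fold (-0.61 ± 0.08, limma adjusted p = 2.21e-06). Irf9 passed with -0.16 ± 0.06 (limma adjusted p = 0.039). Bst2 gave -0.13 ± 0.07 (limma adjusted p = 0.101). The second probes gave -0.06 for Stat2 and -0.76 for Irf7, which did not pass, and -0.71 for Irf1 and -0.24 for Irf9, which passed. Ifit3 was well above background on 1 of 4 arrays in E0 and on none in E4, so that no fold is given.

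Between 4 and 24 h, 4 of the 8 genes rose in nsPEF cells and 1 fell, against 31.7% and 31.7% of all genes. Without Ifit3 3 of 7 rose. Stat2 rose by 0.38 ± 0.07 (limma adjusted p = 5.9e-05), Irf1 by 0.60 ± 0.06 (limma adjusted p = 4.83e-08) and Oasl2 by 0.61 ± 0.14 (limma adjusted p = 0.000902). Ifit3 was well above background on 1 of 4 arrays in E24, where replicate 1 stood at -2.00 and the others between -5.03 and -4.29, and no fold is given since replicate 1 alone stood well above background. Bst2 was the gene that fell, by 0.19 on the log2 scale (limma adjusted p = 0.0227), a direction that turned with scaling on spike-in RNA. Irf7 had a difference of 0.07 ± 0.10 (limma adjusted p = 0.586). The second probes gave -0.03 for Stat2 and -0.575 for Irf7, which did not pass, and 0.62 for Irf1 and -0.21 for Irf9, which passed. At 24 h, 6 of 8 genes stood lower than at 0 h on the percentile scale and none higher, against 21.5% and 24.3% of all genes. Irf7 was then 2.49-fold lower (log2 difference -1.31 ± 0.10, limma adjusted p = 2.2e-09). With scaling on spike-in RNA only Irf7, Isg15 and Oasl2 passed as lower. Irf1 (0.36, limma adjusted p = 0.000783) and the dim Ifit3 (1.01, limma adjusted p = 0.0426) then passed as higher.

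The main question of the study was whether nsPEF-exposed cells differed from sham-exposed cells of the same time. At 0 h none of the 8 genes differed by limma, against 0.101% of all genes called, and 0 had an unadjusted p under 0.05. All 8 differences lay between -0.12 and 0.12 on the log2 scale. At 4 h again none passed, against 4.03% of all genes, although 2 genes had an unadjusted p under 0.05. The same contrasts without limma's shared spread called 0 genes at both times as well.

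One of these 2 genes was Bst2. Its levels were 3.17, 3.11, 3.27 and 3.20 in S4 and 3.33, 3.42, 3.40 and 3.37 in E4, so that every nsPEF array stood above every sham array. The difference was 0.19 ± 0.07 (limma adjusted p = 0.115), and it passed with scaling on spike-in RNA (0.37, limma adjusted p = 0.00879), where the median of all genes stood at 0.15. The exact two-sided permutation p was 0.0286, the smallest that 4 arrays against 4 can give. At 24 h the order turned, with levels of 3.32, 3.32, 3.32 and 3.47 in S24 and 3.26, 3.19, 3.27 and 3.06 in E24, again without overlap (-0.16 ± 0.07, limma adjusted p = 0.165). A test of whether the nsPEF difference changed with time did not pass for Bst2 (limma adjusted p = 0.125). The other of the 2 genes was Irf1, with a difference of -0.13 ± 0.06 at 4 h (limma adjusted p = 0.226) and overlapping groups. None of the 8 genes passed the test of treatment by time, against 0.428% of all genes, while 3 (Irf1, Irf7 and Bst2) had an unadjusted p under 0.05.

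At 24 h 1 of the 8 genes was lower in nsPEF cells and none higher, against 2.98% and 2.76% of all genes, or 5.74% in either direction. The same contrast without limma's shared spread called 2 genes. This was Irf7, with levels of -1.07, -1.01, -1.05 and -0.87 in S24 and -1.17, -1.60, -1.11 and -1.63 in E24. All 4 nsPEF arrays stood below all sham arrays, 2 of them by a small margin, and the difference was -0.38 ± 0.10 (limma adjusted p = 0.0334), a 1.30-fold lower level. The median of its neighbouring probes of like signal on the array differed by -0.04 between the same groups. The call did not hold in 5 of 14 other ways of processing or with any of 6 single arrays of 24 h left out, namely S24 replicates 1 to 4 and E24 replicates 2 and 4, although the difference was negative each time. The second Irf7 probe, well above background on 1 of 4 arrays in each group, gave -0.02 ± 0.59.

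Stat2 came next at 24 h, with levels of 1.53, 1.60, 1.62 and 1.59 in S24 and 1.43, 1.36, 1.47 and 1.17 in E24. The groups did not overlap, and the difference of -0.23 ± 0.07 stood just outside the threshold (limma adjusted p = 0.0542), and it passed in 6 of 14 other ways of processing. The dimmer second Stat2 probe gave 0.58 ± 0.52 at 24 h (limma adjusted p = 0.529), and the mean of both probes gave 0.18 (limma adjusted p = 0.691), so that the sign turned with the choice of probe. Oasl2 had levels of 0.71, 0.75, 0.79 and 0.71 in S24 and 0.60, 0.28, 1.00 and 0.24 in E24. The nsPEF arrays lay on both sides of the sham arrays, and the difference was -0.21 ± 0.14 (limma adjusted p = 0.398). Replicates 2 and 4 of E24 held the lowest 2 levels of that group for Irf7 as well as for Oasl2. Irf9 (-0.04), Irf1 (0.03) and Isg15 (0.02) had differences smaller than their SE.

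Averaged over the 3 time points, none of the 8 genes differed between nsPEF and sham cells, against 10.1% of all genes. Stat2 and Irf7 had an unadjusted p under 0.05 (2 genes), with differences of -0.10 and -0.16. The second Irf9 probe passed with -0.13 ± 0.04 (limma adjusted p = 0.0493), whereas the brighter Irf9 probe gave 0.01 ± 0.04. Ifit3 was well above background on no array of S4 and E4 and on 1 of 4 in E24, and it did not pass at 4 or 24 h (limma adjusted p = 0.297 and 0.501). Neighbouring probes as dim as Ifit3 were brighter on the nsPEF arrays, with median differences of 0.37 at both times.

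**Figure D3:**
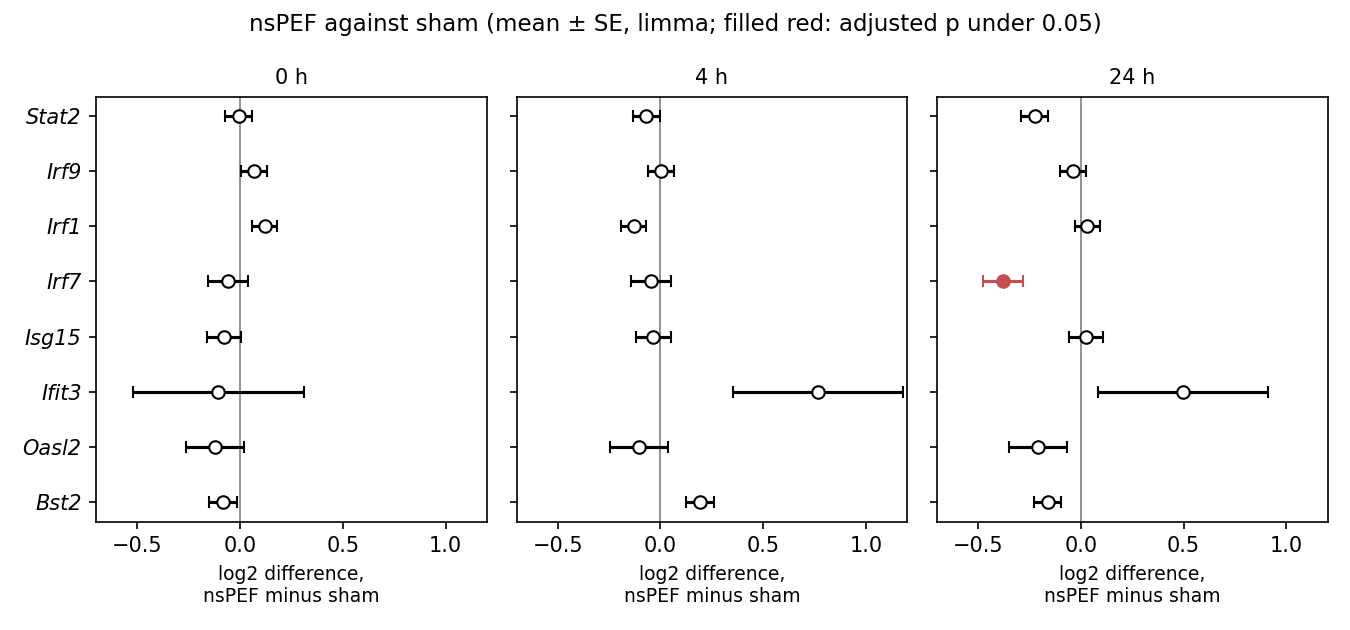
Difference between nsPEF and sham cells for the 8 genes tested at 0, 4 and 24 h; the x axis is the log2 difference with its SE (limma, n = 4 in each group), and filled red points have an adjusted p under 0.05. Irf7 at 24 h was the only filled point, and Bst2 lay above 0 at 4 h and below 0 at 24 h.

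The rest of the pathway was described by 9 lists of genes with known roles, holding 129 further genes, of which 119 were on the array and 97 were tested. These lists, too, were chosen with earlier results of these data known, so that their counts are a description. In sham cells from 0 to 4 h, 47 of the 97 fell and 20 rose, against 34.6% and 30.8% of all genes, with a median difference of -0.28. The same shares of all genes stand behind the counts of each list that follows, several of which are small. The antiviral effectors had 19 that fell and 5 that rose among 30 tested, with a median of -0.70. Ifit2, an RNA-binding relative of Ifit1, had a mean of -0.36 in S0 and -2.84 in S4, and it stood at -0.19 in S24. Parp14, an ADP-ribosyltransferase, fell by 2.32 on the log2 scale. The GTPases induced by interferon gamma had 4 of 6 that fell, with Irgm2 at -2.79 and Igtp at -1.96. The third of that list by size, Gbp5, stood at least 2.28-fold higher in S0 than in S4, where it was not well above background.

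In antigen presentation 6 of 13 genes fell and 2 rose, against 34.6% and 30.8% of all genes. Tap1, which carries peptides to class I molecules, had levels of 1.00, 1.01, 0.87 and 0.91 in S0 and -1.84, -1.53, -1.85 and -1.88 in S4, a difference of -2.72. Psmb9, a subunit of the immunoproteasome, fell by 1.18, and Tap2, the partner of Tap1, fell by 1.10. Among the chemokines and surface ligands, Cxcl10 had the largest fall of all pathway genes tested. This chemokine, which draws T cells, had levels of 4.28, 4.32, 4.17 and 4.19 in S0, of 1.03, 0.76, 0.63 and 0.79 in S4 and of 3.51, 3.59, 3.59 and 3.42 in S24. Its fall of -3.44 was followed by a rise in S24 to a level still -0.71 below S0. In the same list Cd274, which encodes PD-L1, rose by 0.46, and Ccl5 gave 0.17 (limma adjusted p = 0.309).

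Upstream of the effectors stand the receptors, factors and sensors. Of the receptors and kinases 3 of 8 fell and 2 rose, near the 34.6% and 30.8% of all genes, with Tyk2 at -0.54, Jak1 at 0.39 and Ifnar2 at -0.34. Of the other transcription factors 2 of 8 fell and none rose. Stat3, which also serves cytokines such as interleukin 6, fell by 0.76, and Irf4 gave -0.86 (limma adjusted p = 0.436). Of the sensors of nucleic acids and their adaptors 7 of 15 fell and 4 rose. Dhx58, a relative of the RNA sensor RIG-I, gave -1.21, but it was well above background on only 1 of 4 arrays in S4. Zbp1, a sensor of Z-form nucleic acid, gave -1.10, with 3 of 4 S4 arrays well above background. Cgas, the sensor of cytosolic DNA, rose by 1.10.

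The negative regulators, a list that also holds Isg15 and Usp18, had 5 of 10 that fell and 3 that rose. Socs1, a feedback inhibitor of Jak kinases, rose, with levels of 0.51, 0.68, 0.65 and 0.50 in S0 and 2.52, 2.64, 2.74 and 2.88 in S4, a difference of 2.11. Its relatives Socs3 and Cish moved the other way, by -1.95 and -1.82. Of the interferons themselves, 5 of 10 on the array were tested. Ifng was well above background on no array and Ifnb1 on 2 of 24. Ifna2 (0.74) and Ifnab (0.65) rose from 0 to 4 h, and Ifnl3 fell by 0.67. The interferon alpha genes are close to each other in sequence, and their probes were not checked for specificity.

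Markers of other cells moved over the same hours. Of 8 macrophage and leukocyte markers 5 were tested, and from 0 to 4 h in sham cells 1 rose (Csf1r) and 3 fell. The summed level of all 8, as log2, lay between 3.91 and 4.05 in S0, 3.56 and 3.91 in S4, 3.52 and 3.56 in S24, 3.92 and 4.22 in E0, 3.81 and 4.02 in E4 and 3.39 and 3.62 in E24. The leukocyte marker Ptprc and the macrophage marker Adgre1 were each well above background on 1 of 24 arrays, whereas the 5 tested markers include Csf1r and Lyz2. The summed level of the 7 Leydig cell markers lay between 2.13 and 2.65 in S0, 1.85 and 2.21 in S4 and 1.41 and 1.97 in S24, with Star higher and Cyp17a1 lower at 4 h. Of 5 tested markers of other testis and vascular cells, 3 fell and 1 rose. Between nsPEF and sham cells by limma, 1 of the 5 leukocyte markers was lower at 0 h (Csf1r), 1 higher at 4 h (Lyz2) and none different at 24 h. Of the 5 other markers 1 was higher at 0 h and 0 differed at 4 h, while at 24 h 1 was higher (Myh11) and 1 lower (Ddx4). Of all genes, 0.101%, 4.03% and 5.74% were called in either direction at 0, 4 and 24 h. The part of these markers in the results was not tested.

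Between nsPEF and sham cells none of the 97 genes passed at 0 h. At 4 h 3 were lower and 2 higher, against 2.35% and 1.69% of all genes. Eif2ak2, the RNA-activated kinase PKR, differed by -0.30 ± 0.06 (limma adjusted p = 0.0143) and Tap1 by -0.37 ± 0.08 (limma adjusted p = 0.0169). Gbp3, a guanylate-binding protein, was lower (limma adjusted p = 0.0122), being well above background on 4 of 4 arrays in S4 and none in E4, and its sign turned when background was corrected with normexp. Rsad2, or viperin, passed the filter only through E4, being well above background on 2 of 4 arrays there and on 0 of 4 in S4. Its levels were -3.54, -1.11, -5.97 and -4.64 in E4 and between -7.54 and -7.02 in S4. With the S4 arrays taken at the lowest signal of probes well above background and the E4 arrays as measured, E4 stood 2.17-fold higher. This bound was not tested, and replicate 2 held the highest E4 level. Probes never well above background were also brighter on the nsPEF arrays at 4 h, by a median of 0.94. Ifna5 differed by 0.87 (limma adjusted p = 0.017), with overlapping levels of -3.17, -2.88, -3.66 and -3.68 in S4 and -2.92, -2.50, -2.34 and -2.16 in E4.

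At 24 h 12 of the 97 genes were lower in nsPEF cells and 1 higher, against 2.98% and 2.76% of all genes, with a median of -0.09 against 0.01 for all genes. Cxcl10, with levels of 3.30, 3.14, 3.14 and 3.01 in E24, all below those of S24, differed by -0.38 (limma adjusted p = 0.0125). Uba7, the enzyme that activates Isg15 for its attachment, had levels of 1.52, 1.51, 1.51 and 1.48 in S24 and 1.30, 1.09, 1.26 and 1.05 in E24. These did not overlap, and the difference was -0.33 (limma adjusted p = 0.00339). Parp12 (-0.33), Tap1 (-0.28), Tor3a (-0.26), Ifitm3 (-0.24), the receptor chain Ifnar2 (-0.22), the kinase Jak2 (-0.20), Socs3 (-0.21) and Trim24 (-0.21) were lower as well. Cd274 was at least 1.25-fold lower, and Gbp3, not well above background in either group, counted as lower by its measured values alone. With the replicate number as a block, Gbp3 and Tap1 no longer passed (adjusted p = 0.0504 and 0.0529). The proteasome subunit Psmb10 was the 1 gene that was higher, by 0.22. The count of 12 fell to 3 or fewer with scaling on spike-in RNA, with normexp background and with only the arrays compared in the fit, where it was 0. It also fell to 5, 3 and 4 without S24 replicate 1, 2 or 3 and to 3 without E24 replicate 2 or 4, and to 0, 2 and 1 with replicate 2, 3 or 4 of every group left out.

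Averaged over the 3 time points, 12 genes were lower and 2 higher, against 6.04% and 4.01% of all genes. Those not yet named were Mavs, the adaptor of the RNA sensors (-0.17), Parp9 (-0.13) and Cish (-0.24), all lower. The 2 that were higher were Ifna5 (0.44) and Rsad2, which was well above background on no sham array. Both gave dim signals, and probes never well above background were brighter on the nsPEF arrays at every time point. The share of this in the 2 calls was not tested.

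**Figure D4:**
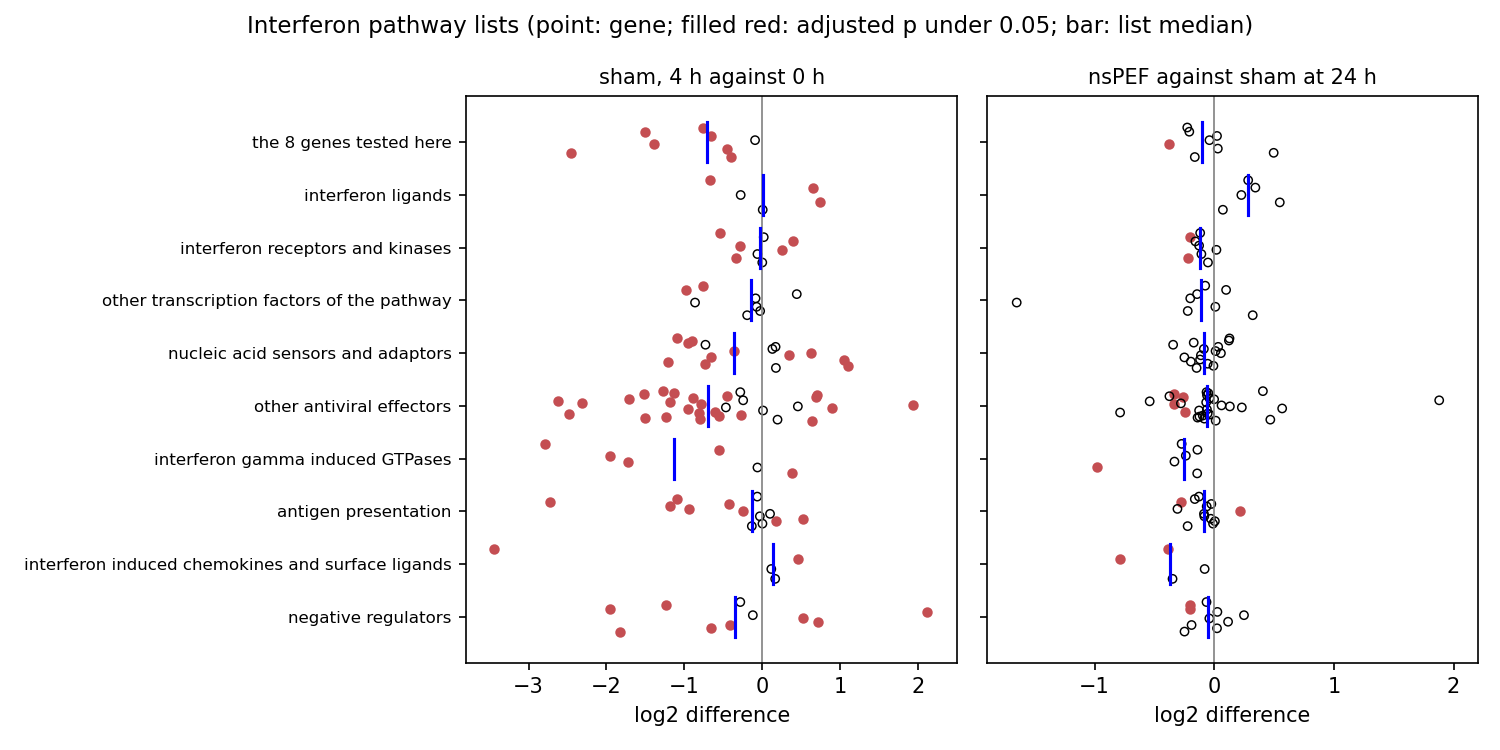
Log2 differences of the tested genes of each interferon pathway list (y axis: list; each point 1 gene) in sham cells from 0 to 4 h (left) and between nsPEF and sham cells at 24 h (right); filled red points have a limma adjusted p under 0.05 and blue bars are list medians. On the left the points reach from -3.44 for Cxcl10 to 2.11 for Socs1, and on the right Irf7 and 12 other genes are filled below 0 and 1 above.

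Lastly, the genes with a course most like that of the 7 bright members were looked up over the 6 group means, among 12245 genes well above background on all arrays. The highest Pearson correlations, between 0.997 and 0.999, were those of Rilpl2, Adamts1, Cyp39a1, Msh5 and Echs1. For Adamts1, an extracellular metalloproteinase, the mean was 3.36 in S0, 0.96 in S4 and 1.58 in S24. These correlations rest on 6 group means that share slides and are a description only.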

How the data were processed

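The 24 arrays were Agilent SurePrint mouse arrays, hybridised with Cy3-labelled cRNA. Per the file headers and labels, the authors' scanner files (Agilent Feature Extraction 12.0) held the deposited processed signal intensity, background-subtracted and not normalised between arrays. The authors also deposited a table of log2 values, shifted to the 75th percentile and centred on medians, used here as an alternative only; it differed from the values below by a median of 0.012. Here, intensities of unmarked spots were averaged per probe, taken as log2 and shifted by the 75th percentile of each array, whose intensity ranged from 202 to 533. No spot was saturated. Probes well above background on at least 2 of 4 arrays of a group (37684) were fitted as 6 group means with limma 3.58.1 (R 4.3.3), with Benjamini-Hochberg adjustment over all of them at 0.05. Symbols came from RefSeq through transcript accessions for 34566 of 56605 probes. The number of arrays limits the precision.

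The members and lists were chosen with earlier results of these data known. The text names every member, from each list at most the 3 tested genes with the largest sham difference between 0 and 4 h, every list gene called between nsPEF and sham, and the 5 genes most like the members. Leydig cell, leukocyte and other testis markers were read alongside. Exact permutation tests were two-sided. Alternatives covered scaling, background, filters, marked spots, probe choice, array weights, row of spots, a replicate block and left-out arrays. Some list genes that this rule names are not reported here. The fit was checked on simulated data with known changes. Replicate numbers were checked for pairing: deviations of same-numbered nsPEF and sham arrays correlated between -0.16 and 0.29, over 0.1 in 7 of 12 pairs and not in every pair. The study ran the tests of a biological replicate on the same cells, but the labels do not tie array numbers to a suspension, and the fit with the number as a block is given as an alternative.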

Additional observations from a re-analysis of the deposited data

Results flagged for a closer look

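Over 76 groups of 4 arrays (13 probes in 6 groups, less those with a missing array), 2 had an array far from the others by Dixon's test, and chance gives about 1 in 20. Bst2 in S24 replicate 4 stood at 3.47 while the other 3 arrays stood at 3.32, a gap of 0.965 of the whole range. Ifit1 in E24 replicate 1 stood at -1.69 while the others lay between -6.21 and -5.51, a gap of 0.845 of the range. This Ifit1 array was the 1 of the 4 with the probe well above background, and the same array held the highest Ifit3 level of its group, at -2.00.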

How the results depend on the processing

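Of 3352 values of the members under other settings, 3111 had the same direction and side of the threshold, 109 turned in sign without passing under either setting, 77 no longer passed, 42 newly passed and 13 turned in sign where a call was involved. The cause was not tested. Among differences called under either setting, spike-in scaling turned the sign in sham cells at 24 h against 0 h for Stat2 (0.46), Irf1 (0.67), Irf9 (0.52) and Bst2 (0.45) and against 4 h for Irf9 (0.56) and Isg15 (0.39). In nsPEF cells it turned against 0 h for Stat2 (0.0222), Irf1 (0.36), Irf9 (0.19) and Bst2 (0.15) and against 4 h for Irf9 (0.28), Isg15 (0.21) and Bst2 (0.21). With normexp, Gbp3 turned between nsPEF and sham at 4 h (0.13), 24 h (0.10) and on average (0.0706), and Cd274 on average (0.0101) and in sham cells at 4 h against 0 h (-0.0367).

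Between nsPEF and sham at 24 h, the count of 1 gene was 0 with the percentile over probes detected on all arrays, normexp, the mean of probes or only the arrays compared, and 2 without a filter, with marked spots, without limma's shared spread, with the deposited table or with array weights. Spike-in scaling gave 1 at 4 h, 8 in nsPEF cells at 24 h against 4 h and 2 for treatment by time, where array weights gave 1. On average, quantile normalization or no filter gave 1, and 2 resulted with marked spots or the deposited table. Without a filter on dim probes, 10286 probes passed at 4 h against 1247, and 8900 at 24 h against 1815.

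Leaving out arrays gave 0 to 0 genes between nsPEF and sham at 0 h, 0 to 1 at 4 h (1 without E24 replicate 1), 0 to 2 at 24 h and 0 to 1 on average. In sham cells it gave 7 to 7 at 4 h against 0 h, 3 to 6 at 24 h against 0 h and 5 to 7 at 24 h against 4 h. In nsPEF cells these were 6 to 7, 6 to 6 and 4 to 6, and treatment by time gave 0 to 0. The Irf7 adjusted p at 24 h ranged from 0.0561 to 0.0787 without 1 S24 array and was 0.122 and 0.12 without E24 replicates 2 and 4.

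With the replicate number as a block, the counts were 7, 6 and 7 in sham cells and 7, 6 and 6 in nsPEF cells for 4 h against 0 h, 24 h against 0 h and 24 h against 4 h, and 0, 0, 1 and 0 between nsPEF and sham at 0, 4 and 24 h and on average. The block newly called Isg15 in nsPEF cells at 24 h against 4 h (-0.19, adjusted p = 0.0308) and no longer called Gbp3 and Tap1 at 24 h (adjusted p = 0.0504 and 0.0529).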

Other observations

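The ISRE core was present in the promoter windows of 492 tested genes, 463 of them in none of the pathway lists. Of these 463 genes, 36.5% fell and 27.6% rose in sham cells from 0 to 4 h, against 34.8% and 31.1% of all 13326 tested genes with a window, and their medians were -0.05 and -0.03. Between nsPEF and sham cells at 24 h, 2.59% of them were lower and 1.94% higher, against 2.89% and 2.63%. Genes with the GAS letters, 1152 in all, had 36.9% that fell and 30.8% that rose from 0 to 4 h in sham cells.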
